A study of Mus musculus with 5 samples.

Results

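The transforming growth factor beta (TGF-beta) system was followed in 10 genes, namely the ligands Tgfb1, Tgfb2 and Tgfb3, the receptors Tgfbr1, Tgfbr2 and Tgfbr3, the latency proteins Ltbp1, Ltbp3 and Ltbp4, and Tgfbi. Every probe set whose annotation gave exactly 1 symbol, and that symbol one of these, was taken, which gave 27 of 45037 non-control probe sets. The genes were chosen by their place in the pathway with measured values already known, since Tgfb2 had been seen to be lower and Tgfbi higher in the knockdown lines. The knockdown-minus-control values of all 10 genes are therefore given as a description, with no p for any single probe set. Probe sets with a mean log2 signal at or above the median of the array, a signal of 40.5, were tested, and 17 of the 27 passed, from 9 of the 10 genes. Signals under 40.5 were not shown to be above background.

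RNA of 5 lines of the mouse neuroblastoma Neuro2A was measured, each on 1 Affymetrix array. The 2 stable KDM7 knockdown lines carried different knockdown vectors (vector 1 in line 1, vector 2 in line 2) against Kdm7a, which encodes a demethylase of histone H3. The 3 control lines were parental cells with no vector, a line with the empty vector, and a line with a knockdown vector against EGFP, called the EGFP line. All 5 share the Neuro2A background, and the parental line is the 1 with no transfection named. The labels do not say whether a line was 1 clone or a pool, or whether lines were grown separately, so errors measure only the spread between these arrays, and their number limits the precision. Signals are MAS5 values on a linear scale. Log2 changes are knockdown minus control, and their standard errors (SE) come from limma.

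TGF-beta is secreted as a dimer that stays bound to its own propeptide, and latent TGF-beta binding proteins anchor this inactive complex in the extracellular matrix. Once released, the ligand binds the type II receptor, which phosphorylates the type I receptor, and SMAD2 and SMAD3 carry the signal to the nucleus. In the nervous system the pathway is known for roles in neuron survival and in the sympathoadrenal lineage from which neuroblastoma arises.

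The knockdown was seen in each of the 3 tested Kdm7a probe sets. Probe set 1456150_at had 130.3 and 136 in knockdown lines 1 and 2, against 487, 611 and 665 in parental, empty vector and EGFP lines. Its log2 change was -2.13, and those of 1435867_at and 1427359_at were -1.99 and -1.86. The dim 1459820_at and 1459821_x_at did not pass the filter and had signals up to 25.1. Of 11 neuroblastoma markers with a probe set 10 passed the filter, and the summed signal of all 11 was 50840 to 56980 in the knockdown lines and 48230 to 54600 in the control lines. Th, tyrosine hydroxylase, did not pass. Isl1, a transcription factor of this lineage, had 316 and 466 in knockdown lines 1 and 2, against 1493, 545 and 1998 in parental, empty vector and EGFP lines, with both knockdown lines below every control. Gata3 and Chga also lay below every control and Chgb above. So 3 of the 11 markers were below and 1 above, against 8.97% and 12.5% of all probe sets. Of 10 fibroblast or mesenchymal markers 2 were below and 1 above, and of 5 Schwann or glial markers 0 and 1, all on probe sets that did not pass the filter. Of 6 blood or immune markers 0 were below and 0 above. The part of these markers in the results was not tested. The filter was passed by 2 of 10 fibroblast or mesenchymal markers (sums of all 10 from 186 to 268 in knockdown and 212 to 259 in control lines). It was passed by 1 of 5 Schwann or glial markers (sums 342 to 497 in knockdown and 173 to 411 in control lines) and by 1 of 6 blood or immune markers (sums 189.7 to 228.5 in knockdown and 162 to 228 in control lines). The fibroblast or mesenchymal markers that passed were Pdgfra, with 115 and 51.5 in the knockdown lines, against 73.5, 66.3 and 109.9 in the control lines, and Col1a2, with 61.3 and 27.9, against 46.0, 40.3 and 45.9. The others, Col1a1, Col3a1 and Dcn among them, did not pass. Erbb3 was the Schwann or glial marker and Csf1r the immune marker that passed.

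The clearest pattern among the 10 genes ran in opposite directions in Tgfb2 and Tgfbi. All 4 probe sets of Tgfb2, a ligand, had both knockdown signals under the lowest control signal, with mean folds of 1.32 to 2.06. All 4 probe sets of Tgfbi, which encodes a secreted matrix protein first found as a gene induced by TGF-beta, had both above the highest control signal, with mean folds of 2.09 to 4.55. No probe set of the other 8 genes that passed the signal filter had both knockdown lines outside the controls, apart from Tgfbr1 1420895_at. Of all 45037 probe sets, 8.97% had both knockdown lines below every control and 12.5% above. Both directions were known when the genes were chosen. Probe sets of 1 gene are not separate readings, since 3 of Tgfb2 and 2 of Tgfbi share a source sequence. In RNA from whole cultures, fewer cells that express a gene and less RNA per cell cannot be told apart.

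The sequences at the starts of these 2 genes are shown because their signals moved apart. Windows from 250 bases before to 50 after a transcription start were found in RefSeq (build GRCm38.p6) for 8 of the 10 genes, 12 windows in all. They were searched on both strands for the TATA box as TATAAA, the CCAAT box as written, the GC box as GGGCGG, the E-box as CACGTG, the cyclic AMP response element as TGACGTCA and a SMAD-type box as CAGACA, and matches are in capitals. The Tgfb2 window is chr1:186705940-186706239 on the minus strand, and the Tgfbi window is chr13:56609336-56609635 on the plus strand. The Tgfb2 window lies inside the annotated gene, whose first base on that strand is at 186709697.
Tgfb2: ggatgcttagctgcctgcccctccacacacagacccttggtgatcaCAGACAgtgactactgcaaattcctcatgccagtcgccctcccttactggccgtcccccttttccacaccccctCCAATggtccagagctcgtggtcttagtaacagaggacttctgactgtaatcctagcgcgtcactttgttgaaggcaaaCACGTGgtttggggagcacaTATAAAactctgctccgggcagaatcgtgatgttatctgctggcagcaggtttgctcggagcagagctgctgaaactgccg
Tgfbi: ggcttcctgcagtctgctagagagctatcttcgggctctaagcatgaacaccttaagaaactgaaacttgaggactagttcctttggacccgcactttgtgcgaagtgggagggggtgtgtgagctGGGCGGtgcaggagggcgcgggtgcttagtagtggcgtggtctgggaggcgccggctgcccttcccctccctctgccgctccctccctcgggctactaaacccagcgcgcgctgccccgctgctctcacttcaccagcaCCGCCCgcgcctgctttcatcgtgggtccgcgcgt

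The Tgfb2 window held 1 TATAAA at position -31, 1 CACGTG at -51, 1 CCAAT at -130 and 1 CAGACA at -204, each counted to the leftmost base, where 0 is the first base after the start. Of 32851 windows of this length, 13.6% held TATAAA, 7.15% CACGTG, 37.4% CCAAT and 21.0% CAGACA. The Tgfbi window held none of these 4, and had GGGCGG at -124 and, on the other strand, at 15. GGGCGG was in 35.7% of all windows. G and C made up 63.3% of the Tgfbi window, against 54.3% of the Tgfb2 window and a median of 52.7% over all windows. Tgfb2 was the 1 gene of the 8 with TATAAA or CACGTG in a window, and Ltbp1 the 1 with TGACGTCA (1.79% of all windows). These matches are letters in a window and were not tested as binding sites.

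Among the ligands, Tgfb2 1423250_a_at had a signal of 271 in knockdown line 1 and 283 in line 2, against 730 in the parental, 377 in the empty vector and 676 in the EGFP line. Both knockdown lines lay below every control, and the empty vector line was the nearest, 1.33 times the higher knockdown line. The log2 change was -1.04 (SE 0.28). The signal averaged 277 ± 8.34 (SD, n = 2) in knockdown and 594 ± 189.9 (SD, n = 3) in control lines, so the control lines differed more among themselves than the knockdown lines did.

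The other Tgfb2 probe sets gave the same order of the lines, parental highest, then EGFP, then empty vector, then both knockdown lines. Tgfb2 1450923_at had 268 and 293 in knockdown lines 1 and 2, against 737, 334 and 604 in parental, empty vector and EGFP lines (log2 change -0.92, SE 0.31). Tgfb2 1450922_a_at had 259 and 362 in the knockdown lines, against 634, 434 and 511 in the control lines in the same order (-0.76, SE 0.23). The dimmest, 1438303_at, had 67.3 and 63.6 in the knockdown lines, against 91.8, 81.6 and 85.8 in the control lines (-0.40, SE 0.29). The 3 brighter probe sets were designed from 1 source sequence, so they are not independent readings of the gene. Over leaving out each array in turn, 1423250_a_at had log2 changes from -1.34, without the empty vector line, to -0.87, without the parental line, and 1450922_a_at had -0.52 without knockdown line 1.

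Tgfb1, the most widely expressed ligand, was not set apart by the knockdown. Tgfb1 1420653_at had 178.5 and 182 in knockdown lines 1 and 2, against 83.9 in the parental, 213 in the empty vector and 194 in the EGFP line. The knockdown lines lay between the parental line and the vector controls, and the log2 change of 0.25 (SE 0.39) was -0.17 without the parental line. The second Tgfb1 probe set, 1445360_at, did not pass the filter, with 28.7 and 6.68 in the knockdown lines, against 37.9, 30.3 and 45.1 in parental, empty vector and EGFP lines. Tgfb3 1417455_at had 116 and 62.7 in the knockdown lines, against 162, 88.3 and 109.9 in the control lines. The knockdown lines fell on either side of the vector controls, and the log2 change of -0.45 (SE 0.38) was 0.0015 without knockdown line 2.

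**Figure D1:**
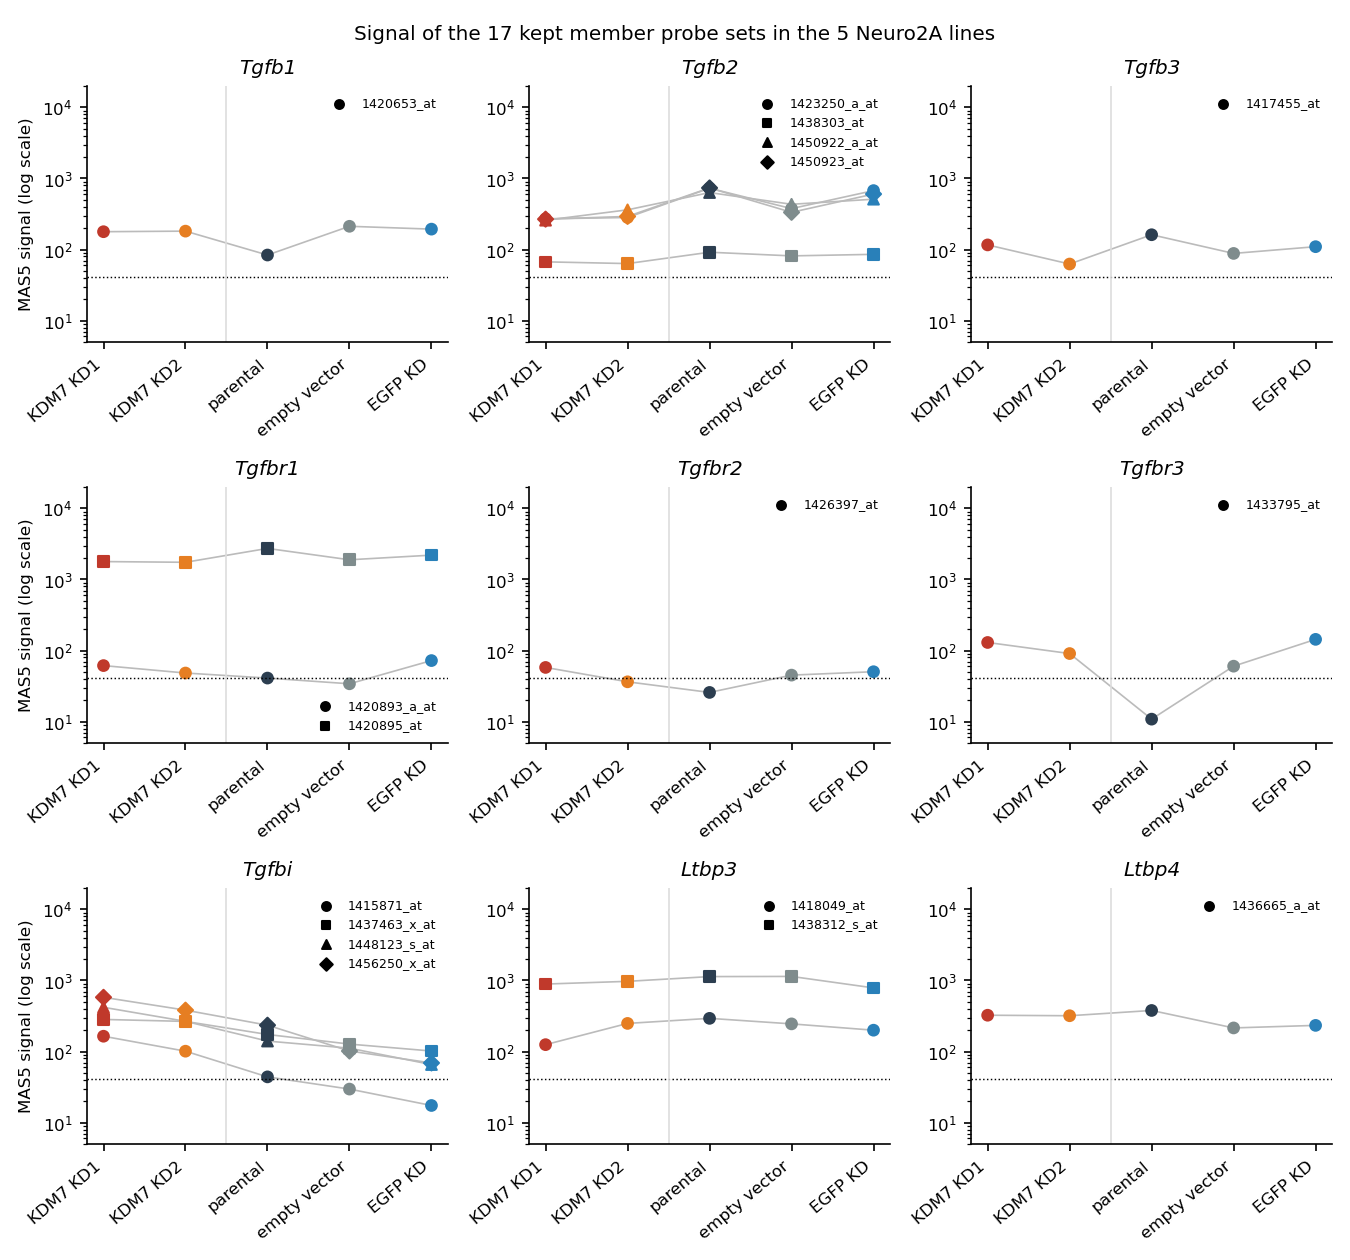
MAS5 signal (vertical axis, log scale) of the 17 probe sets that passed the filter, by gene, in the 2 KDM7 knockdown lines and the parental, empty vector and EGFP lines. Each point is 1 array, marker shapes are probe sets, grey lines only join the points of 1 probe set, and the dotted line is the signal of 40.5. The 4 Tgfbi probe sets are highest in both knockdown lines, the 4 Tgfb2 probe sets are lowest there, and Tgfbr3 is at 10.9 in the parental line.

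Tgfbi was the member with the largest changes. Tgfbi 1456250_x_at, its brightest probe set, had 580.3 in knockdown line 1 and 383 in line 2, against 235 in the parental, 102 in the empty vector and 69.2 in the EGFP line (log2 change 1.99, SE 0.49). Tgfbi 1448123_s_at had 420.0 and 266 in the knockdown lines, against 141, 112 and 65.7 in the control lines in the same order (1.73, SE 0.36). All 4 probe sets put the lines in 1 order, knockdown line 1, knockdown line 2, parental, empty vector, EGFP. The lower knockdown line was 1.53 to 2.30 times the highest control line.

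Tgfbi 1415871_at had 164.5 and 101 in knockdown lines 1 and 2, against 44.1, 29.7 and 17.5 in parental, empty vector and EGFP lines. The log2 change of 2.18 (SE 0.48) is uncertain in size, since the empty vector and EGFP signals were under 40.5, and it was 1.40 with 32 added to each signal. Tgfbi 1437463_x_at had 283 and 266 in the knockdown lines, against 174, 127 and 102 in the control lines (1.06, SE 0.27). The probe sets 1415871_at and 1448123_s_at share 1 source sequence. The names of 1437463_x_at, 1456250_x_at and 1448123_s_at mark probes that may also bind other transcripts. Without the parental line the Tgfbi changes were larger, at 2.50 for 1415871_at and 2.49 for 1456250_x_at.

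Among the receptors, Tgfbr1, the type I receptor kinase, had probe sets that differed in direction. Tgfbr1 1420895_at had 1787 and 1746 in knockdown lines 1 and 2, against 2737 in the parental, 1894 in the empty vector and 2201 in the EGFP line. Both knockdown lines lay below every control, with the empty vector line 1.06 times the higher of them (log2 change -0.35, SE 0.17, or -0.21 without the parental line). Tgfbr1 1420893_a_at had 61.5 and 48.4 in the knockdown lines, against 41.1, 34.1 and 72.4 in the control lines, so the groups overlapped (0.23, SE 0.44, or 0.0006 without the empty vector line). The third, 1420894_at, had signals of 3.54 to 12.9 on all 5 arrays and did not pass the filter. These 3 probe sets share 1 source sequence.

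Tgfbr2, the type II receptor kinase that starts the signal, was dim throughout. Tgfbr2 1426397_at had 58.0 and 36.4 in knockdown lines 1 and 2, against 25.8, 45.2 and 50.5 in parental, empty vector and EGFP lines. The groups overlapped, and the log2 change of 0.24 (SE 0.47) turned to -0.06 when the parental line was left out, and to -0.10 when knockdown line 1 was. Its other 2 probe sets did not pass the filter, with signals from 2.57 to 29.9.

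Tgfbr3, betaglycan, is a co-receptor that presents ligands, the product of Tgfb2 above all, to the signalling receptors. Tgfbr3 1433795_at had 130.1 and 90.9 in knockdown lines 1 and 2, against 10.9 in the parental, 60.4 in the empty vector and 144 in the EGFP line. The knockdown lines lay within the range of the vector controls, and the parental line stood far below the other 4. The log2 change of 1.26 (SE 1.02) was 0.22 without the parental line and 2.09 without the EGFP line. Its second probe set, 1425620_at, had 2.00 to 22.2 and did not pass.

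Among the latency proteins, Ltbp3, which is secreted bound to latent TGF-beta, had 2 tested probe sets. Ltbp3 1438312_s_at had 891 and 973 in knockdown lines 1 and 2, against 1135, 1141 and 787 in parental, empty vector and EGFP lines, and the groups overlapped (log2 change -0.11, SE 0.20, or -0.29 without the EGFP line). Ltbp3 1418049_at had 125 and 249 in the knockdown lines, against 293, 245 and 200.0 in the control lines. Line 1 alone was below the controls, and the log2 change of -0.46 (SE 0.32) was 0.03 without it. The other 2 Ltbp3 probe sets reached at most 29.6.

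Ltbp4, a latency protein that also takes part in elastic fibre assembly, had 325 and 319 in knockdown lines 1 and 2 by probe set 1436665_a_at, against 379 in the parental, 215 in the empty vector and 234 in the EGFP line. The knockdown lines lay above both vector controls and below the parental line, and the log2 change of 0.27 (SE 0.27) became 0.52 with the parental line left out and 0.11 with the empty vector line left out. Ltbp1, the founding member of the family, had no probe set that passed, and its 3 probe sets had signals from 0.468 to 13.1 on the 5 arrays. In all, the 10 probe sets that did not pass had signals from 0.468 to 45.1.

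**Figure D2:**
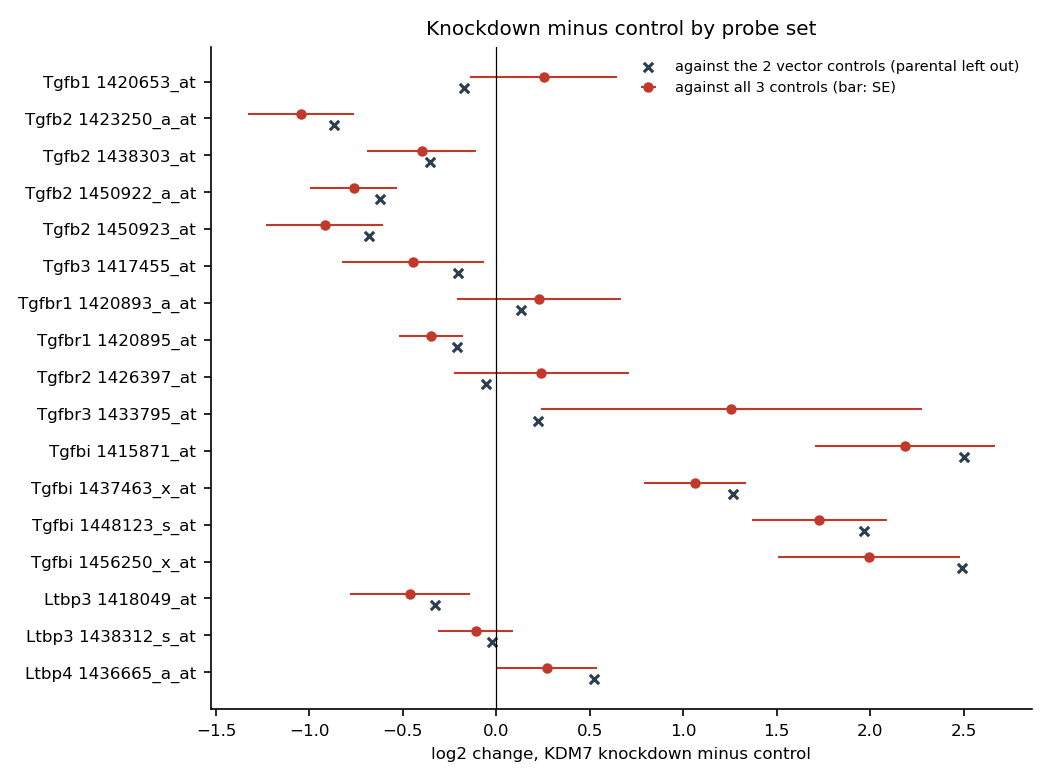
Log2 change, KDM7 knockdown minus control (horizontal axis), of the 17 tested probe sets. Circles are the changes against all 3 controls with SE bars, and crosses the changes with the parental line left out. The Tgfbi changes reach 2.50 and the Tgfb2 changes -0.87 without the parental line, while Tgfbr3 moves to 0.22.

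Counted over all 27 probe sets, both knockdown lines were above every control for 4, all of Tgfbi, and below every control for 6, which were the 4 of Tgfb2, Tgfbr1 1420895_at and the dim Tgfb1 1445360_at. Of all 45037 probe sets, 12.5% had both knockdown lines above and 8.97% below. By each gene's brightest tested probe set, 1 of 9 genes was above and 2 were below, against 12.7% and 10.2% of all 10867 genes. In limma's test across the 22519 probe sets, 0 of the 17 tested passed an adjusted p of 0.05, against 0.00888% of all (2 probe sets, of Fst and Kdm7a). Before adjustment, 7 of 17 had a limma p under 0.05, against 4.96% of all. Since these genes were chosen on this comparison, nothing is read from these counts.

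Differences among the control lines were not used in choosing the genes and were tested. The tested Tgfb2 and Tgfb3 probe sets had their highest signal in parental cells and that of Tgfb1 its lowest, but no ligand passed the test against the vector controls. For Tgfb2 the log2 differences ran from 0.13 (SE 0.37) to 0.71 (SE 0.34), with adjusted p-values of 0.404 to 0.904 in limma. Tgfbr3 1433795_at had 10.9 in the parental line, against 60.4 and 144 in the empty vector and EGFP lines, a log2 difference of -3.10 (SE 0.59, adjusted p = 0.114 in limma). The parental signal was under 40.5, so the size is uncertain, and with 32 added to each signal the difference was -1.57. Tgfb1 1420653_at had 83.9 in the parental line, against 213 and 194 in the vector controls, a log2 difference of -1.28 (SE 0.28, adjusted p = 0.123 in limma, and 0.0733 to 0.265 over the alternatives). Both knockdown lines, at 178.5 and 182, were near the vector controls. Tgfb1 and Tgfbr3 were thus lower in parental cells than in all 4 vector-carrying lines, but neither passed the test.

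Tgfbi 1456250_x_at had 235 in the parental line, against 102 and 69.2 in the empty vector and EGFP lines (log2 difference 1.49, SE 0.36, adjusted p = 0.151 in limma). The next by size were Tgfbi 1415871_at (0.95, SE 0.55, adjusted p = 0.483 in limma) and Tgfbr2 1426397_at (-0.89, SE 0.53, adjusted p = 0.498 in limma). No member passed, 0 of 17, against 0.155% of all probe sets (35 of 22519). Before adjustment, 5 of 17 had a limma p under 0.05, namely Tgfbr3 1433795_at, Tgfb1 1420653_at, Tgfbi 1456250_x_at, Ltbp4 1436665_a_at and Tgfbr1 1420895_at, against 14.5% of all. Without the trend and robust options limma called 0 probe sets in each of the 3 comparisons. Tgfbr3 1433795_at passed in no alternative that tested it with both vector controls kept. Without the empty vector line, which leaves 1 vector control array, the log2 difference of Tgfbr3 was -3.73. The parental line was the highest of the 5 for 9 of the 27 probe sets, against 19.7% of all, and the lowest for 6, against 29% of all.

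The 2 knockdown lines were compared with each other, which the choice of genes did not use either. Ltbp3 1418049_at had 249 in line 2 and 125 in line 1, a log2 difference of 0.99 (SE 0.42, adjusted p = 1.0 in limma). Tgfb3 1417455_at had 62.7 in line 2 and 116 in line 1 (-0.89, SE 0.56, adjusted p = 1.0 in limma). No line was lower throughout, since the first was lower in line 1 and the other in line 2. Tgfbi 1415871_at had 101 in line 2 and 164.5 in line 1 (-0.70, SE 0.76), and 1448123_s_at had 266 in line 2 and 420.0 in line 1 (-0.66, SE 0.56, adjusted p = 1.0 for both in limma). Tgfbr2 1426397_at had 36.4 in line 2 and 58.0 in line 1 (-0.67, SE 0.75, adjusted p = 1.0 in limma). The Tgfbi signals were lower in line 2, though none passed. Tgfb2 1423250_a_at had 283 in line 2 and 271 in line 1 (0.06, SE 0.49). Of the 17 probe sets 0 passed, against 0.00444% of all, and 1, Ltbp3 1418049_at, had an unadjusted p under 0.05 in limma, against 1.51% of all.

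**Figure D3:**
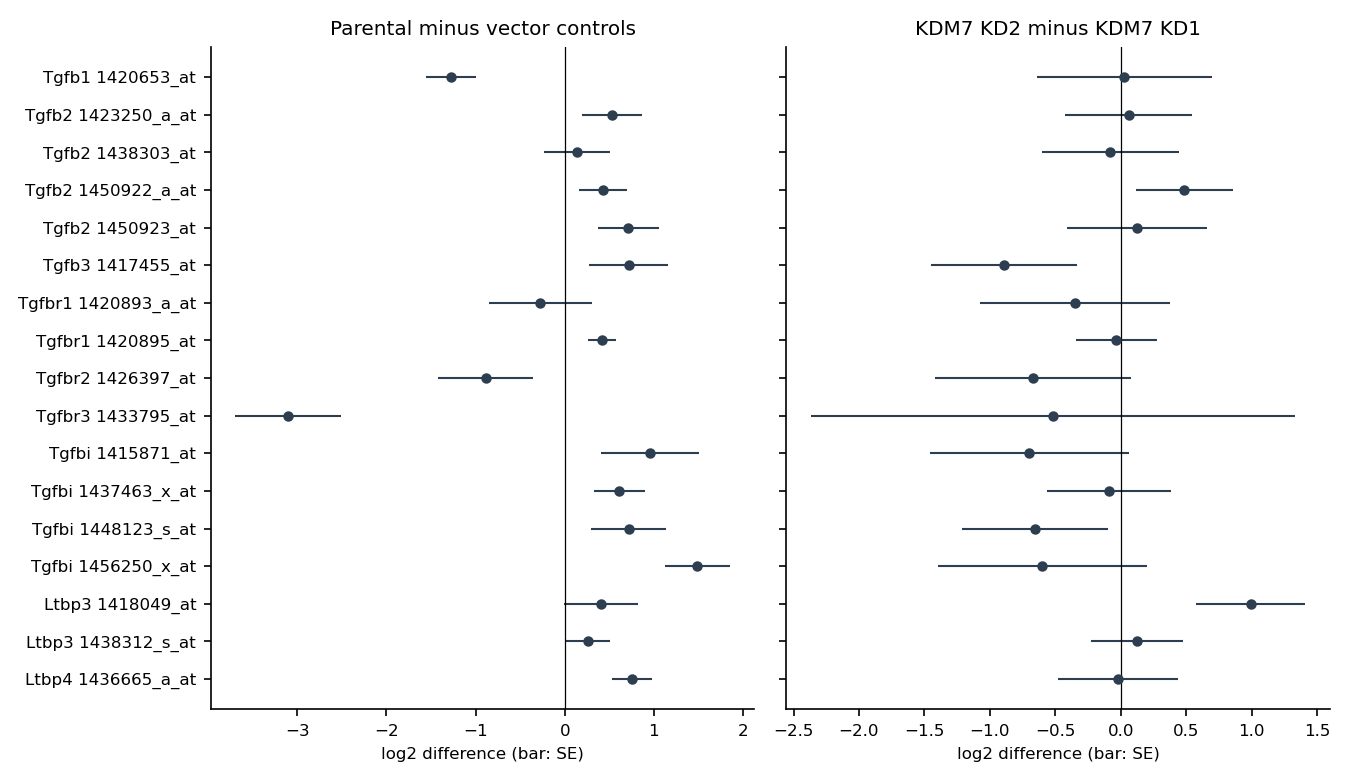
Log2 differences (horizontal axes, SE bars) of the 17 tested probe sets, parental minus vector controls on the left and knockdown line 2 minus line 1 on the right. Tgfbr3 at -3.10 and Tgfb1 at -1.28 are lower in parental cells, and most of the bars on the right cross 0.

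The rest of the pathway was read from 97 gene names sorted by role, of which 91 had a probe set with 1 symbol and 59 a tested one. No gene rose and no gene fell in the knockdown lines at an adjusted p of 0.05 in limma, 0 of 59, against 0.00888% of all probe sets. Before adjustment, 3 of 59 had a probe set with a limma p under 0.05, against 4.96% of all probe sets. In both counts a gene passed if any of its tested probe sets did, so shares of genes and of probe sets are unlike units. Taking each gene's brightest tested probe set, the median log2 change was -0.06, against 0.03 over all 10867 genes. Both knockdown lines were above every control for 7 of the 59 and below for 10, against 12.7% and 10.2% of all genes. These counts describe the lists and were not tested.

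Of 9 genes of latency and activation the median log2 change was 0.17. The largest was Itgb3, the integrin beta3 subunit, with 138 and 80.7 in knockdown lines 1 and 2, against 61.3, 95.1 and 6.74 in parental, empty vector and EGFP lines (1.64, SE 1.11), so the groups overlapped. The EGFP signal was under 40.5, and the change was 0.47 without that line. Bmp1, a protease that cleaves matrix proteins and latent TGF-beta binding protein, had the lowest (-0.63, SE 0.84). It became -0.11 with the parental line left out and turned to 0.23 with knockdown line 2 left out. Of 9 receptors and co-receptors the median was -0.15. Nrp1, neuropilin, a semaphorin receptor that also binds TGF-beta, had 1123 and 1303 in the knockdown lines, against 3456, 1963 and 1970 in the control lines. Both knockdown lines were below every control (log2 change -0.97, SE 0.25), and it did not pass (adjusted p = 0.916 in limma). Eng, endoglin, a co-receptor like betaglycan, had 324 and 273, against 225, 255 and 249 (0.29, SE 0.20, or 0.17 without knockdown line 1).

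The 14 genes of the SMAD branch had a median of -0.07 and a range from -0.42 to 0.10. Smad3, which carries the signal, had 169.5 and 209 in knockdown lines 1 and 2, against 252, 276 and 232 in parental, empty vector and EGFP lines, with no overlap (log2 change -0.42, SE 0.21, adjusted p = 0.916 in limma). Without knockdown line 1 the change was -0.27. Smad4, the partner shared by all such signals, was at 0.10 (SE 0.12). The 11 kinases and adaptors of other branches had a median of 0.08, from Rhoa, a small GTPase, at -0.25 (SE 0.16, or -0.09 without the parental line) to the adaptor Shc1 at 0.44 (SE 0.26). Shc1 was lowest in the parental line, and its change was 0.17 without that line.

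The 15 tested genes known as TGF-beta targets in other cells had a median of -0.07. Col4a1, a basement membrane collagen, had 3988 and 3366 in knockdown lines 1 and 2, against 2137, 3010 and 2075 in parental, empty vector and EGFP lines. Both knockdown lines were above every control (log2 change 0.63, SE 0.18), and it did not pass (adjusted p = 0.916 in limma). Acta2, smooth muscle actin, had 89.6 and 39.3 in the knockdown lines, against 2733, 104.5 and 73.3 in the control lines, so its log2 change of -2.22 (SE 1.69) was -0.56 without the parental line. Parental cells differed from the vector controls by 4.96 on the log2 scale (adjusted p = 0.0329 in limma). Acta2 was the 1 gene of the 59 with any tested probe set that passed in that comparison. Of all probe sets 0.155% passed, a share counted by probe set and not by gene. Without the trend and robust options 0 probe sets passed there. Of the fasciclin family, to which Tgfbi belongs, Stab1 alone was tested (0.32, SE 0.39).

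**Figure D4:**
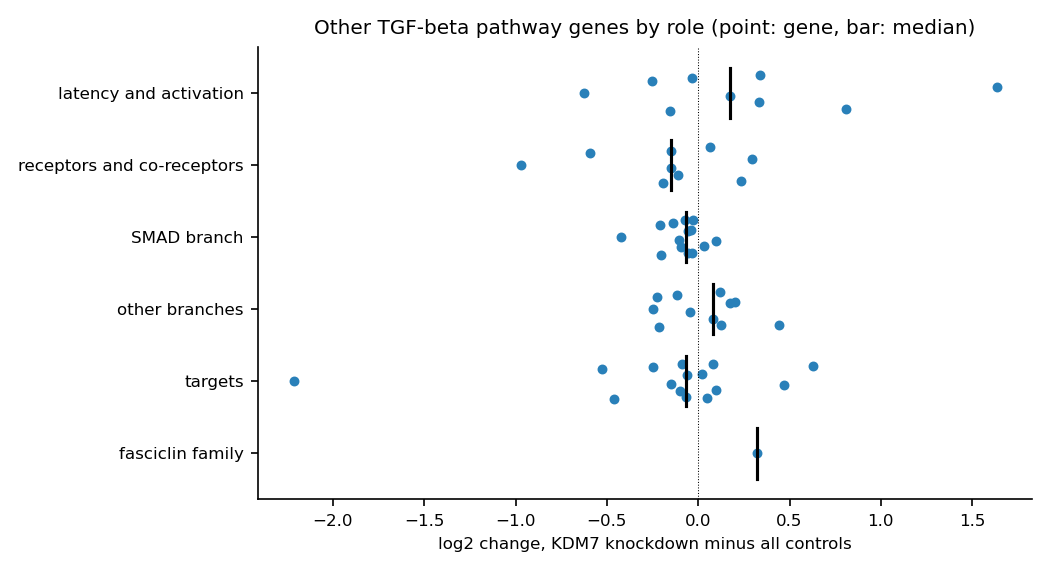
Log2 change, KDM7 knockdown minus all controls (horizontal axis), of the other pathway genes, 1 point per gene by its brightest tested probe set, grouped by role. The bars are medians, from -0.15 for receptors and co-receptors to 0.32 for the single fasciclin gene, and the SMAD branch spans -0.42 to 0.10.

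The genes most like Tgfb2 and Tgfbi over the 5 arrays were found by the root mean square difference of log2 signals, each centred on its own mean. For Tgfb2 1423250_a_at they were Daam2 (0.10), Ank3 (0.11) and Dlx2 (0.15). Ank3, an ankyrin, had 470.3 and 386 in knockdown lines 1 and 2, against 1172, 586 and 1071 in parental, empty vector and EGFP lines, a pattern of a high parental and EGFP line and a middling empty vector line. For Tgfbi 1456250_x_at the nearest were D3Ertd751e (0.41), Slc2a4 (0.44) and Ssc5d (0.46). The signals were not scaled to 1 spread, and ranged 8.39-fold for this probe set and 2.69-fold for Tgfb2 1423250_a_at. The distances of the 2 genes are therefore not directly comparable. This likeness describes 5 arrays and was not tested.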

How the data were processed

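The authors deposited 1 intensity per probe set and array, on a linear scale, computed with MAS5 per the submitters' processing notes. Which version was used is not stated in the labels, and detection calls were not used. A mean of each array, leaving out 2% at each end, came to 500.0 on all 5 arrays, so none was rescaled. Control probe sets (64 of 45101) were left out, and symbols came from the platform annotation. Log2 was taken of the intensities as deposited. The 22519 probe sets with a mean log2 signal at or above the median were fitted in limma 3.58.1 (R 4.3.3; lmFit, eBayes with trend and robust, Benjamini-Hochberg), with 3 residual degrees of freedom for knockdown against control, and 2 in the models for parental against vector controls and for line 2 against line 1, where a single array is assumed to vary like the others. In data simulated for a check of the code these options called more unchanged probe sets than intended, so p-values are too small by that measure. The members and lists were chosen with earlier results of these data known. Genes named were all members, Kdm7a, the 5 largest member differences in each of the other 2 tests, the highest and lowest gene of each role list, and the 3 most alike to Tgfb2 and Tgfbi. The alternatives changed the normalization (quantile, cyclic loess or median centring), the brightness filter (none, or raised to the 70th percentile), the log2 offset (32) and eBayes (neither trend nor robust), or left out 1 array. The motifs and the 2 windows printed were chosen after the values were seen.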

Additional observations from a re-analysis of the deposited data

How the results depend on the processing

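The directions of the 4 Tgfbi and 4 Tgfb2 probe sets in the knockdown lines held under all 3 other normalizations. The offset of 32 and the removal of any 1 array could not turn them, since both knockdown signals lay beyond every control. Nothing is read from those 2 checks, and both directions were known when the genes were chosen. Of the 17 tested member probe sets 4 changed the sign of the knockdown change when an array was left out, namely those of Tgfb1, Tgfb3, Tgfbr2 and Ltbp3 given above, and of the 10 others 4 did in some alternative. Median centring moved the median knockdown change over all tested probe sets by -0.11 and the median parental difference by 0.16, and the values given are relative to the deposited scale. The count of all probe sets past the threshold for knockdown against control was 1 after median centring, 0 after cyclic loess, 0 without trend and robust, and 0 to 4 when each array was left out. For parental against vector controls it was 99 after median centring, 3 with no filter, 4 once the filter was raised to the 70th percentile, 0 without trend and robust, and 24 to 774 when an array was left out, 707 without the empty vector line and 774 without the EGFP line. For line 2 against line 1 it was 0 with no filter, 0 without trend and robust, and 0 to 2 when an array was left out. The member probe sets with both knockdown lines above every control were 5 to 9 when an array was left out. With fewer arrays to exceed, this count can only stay or rise, for members as for all probe sets. The share over all probe sets was not counted there, so nothing is read from it. Those lowest in the parental line were 3 of the 17 tested ones, against 31.5% of all tested probe sets. The count of other pathway genes past the threshold for knockdown against control was 0 in every alternative run. The causes of the other shifts in these counts were not tested. The labels give the lines no shared replicate numbers, so no paired analysis was possible because nothing links a knockdown line to a control line. Arrays without detection calls give no bound on signals under 40.5.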
